A study of Rattus norvegicus with 9 samples.

Results

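The subject here is a set of 10 genes of excitatory transmission in the rat hippocampus, out of 30562 genes in the deposited count table. They were chosen by gene name: the AMPA receptor subunits Gria1, Gria2, Gria3 and Gria4, the NMDA receptor subunits Grin1, Grin2a and Grin2b, the metabotropic receptors Grm5 and Grm3, and the vesicular glutamate transporter Slc17a7. All 10 names were found, each with 1 gene ID. The choice used gene names, with no threshold on a value, but was made with earlier results of these data known. The shares of members called, set beside those of all tested genes below, are therefore descriptions. Poly(A) RNA was sequenced from the hippocampal region of male Sprague-Dawley rats, 6 to 8 weeks old at the start, in 3 groups of 3 libraries. Ctrl rats were normal controls. Model rats were fed a high-fat diet for 4 weeks and injected once with 50 mg/kg streptozotocin, a toxin of insulin-producing cells. Those with a fasting glucose of at least 16.7 mmol/L counted as diabetic and underwent 5 weeks of chronic unpredictable mild stress. ChryM denotes rats given chrysophanol, a plant anthraquinone, by gavage for 14 consecutive days. That these were also diabetic and stressed rats follows from the series title, which speaks of comorbid rats, and the labels give neither the dose nor the meaning of the letter M. No label ties a library to an animal, so the p-values below measure the spread between libraries, which may be technical.

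Glutamate is the main excitatory transmitter of the brain. The vesicular transporter loads it into synaptic vesicles at the presynaptic terminal, and AMPA receptors, tetramers of the Gria products, carry most of the fast synaptic current. NMDA receptors pair the obligatory GluN1 subunit, encoded by Grin1, with a GluN2 subunit, and admit calcium when the postsynaptic membrane is depolarised, a step in long-term potentiation at hippocampal synapses. Metabotropic receptors act through G proteins: mGluR5 (Grm5) couples to phospholipase C, and mGluR3 (Grm3), found on astrocytes and some neurons, inhibits adenylyl cyclase.

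Libraries were shallow, with 631119 to 866048 counts each, and the 10 genes together received 630 to 1051 counts per library, or 0.0961% to 0.131% of the total. Of the 10 genes, 7 passed the filter on low counts that left 7073 genes for testing, and Grin2a, Grin2b and Grm3 did not. All 9 markers of hippocampal pyramidal neurons were among the tested genes, and of the 6 dentate granule neuron markers Tdo2 was at 0 in every library. The library kit keeps strand, but whether the counting used it, and how, was not stated in any source used here. Mt-nd6, the mitochondrial protein gene encoded on the strand opposite to the other 12, stood at 42040 FPKM on average, 5.67 times the next mitochondrial gene. Of the 100 protein-coding genes with the highest FPKM and a known strand, 33.0% overlapped a protein-coding gene on the other strand, against 15.8% of all 12030 such genes with counts. Whether the counts under a gene's name are reads of its own mRNA, of the opposite strand or of an overlapping gene was not tested, so the levels and changes below are those of the counts deposited under each name.

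Levels of different genes were compared on the deposited FPKM, which divides counts by gene length and library total. Slc17a7 was highest, at 157 to 226 FPKM over the 9 libraries with a median of 191, and Grin1 followed at 50.0 to 66.5 with a median of 57.6. These ranges did not overlap each other or that of Gria2, at 12.6 to 29.1 FPKM. From Gria2 down, each range overlapped the next: Gria1 (7.15 to 26.2 FPKM), Gria3 (3.94 to 8.45), Gria4 (2.02 to 4.50), Grm5 (1.00 to 3.23), Grm3 (0.895 to 2.82), Grin2b (0.301 to 1.76) and Grin2a (0 to 1.48). The order within that run is therefore not separated for neighbours. Slc17a7 lay above 98.2% of all genes with counts and Grin2a above 20.4%. The obligatory GluN1 subunit gene was thus far above both GluN2 subunit genes on this scale, with 164 to 247 counts per library outside Model 2, which had 137, against 0 to 7 counts for Grin2a and 1 to 8 for Grin2b.

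**Figure D1:**
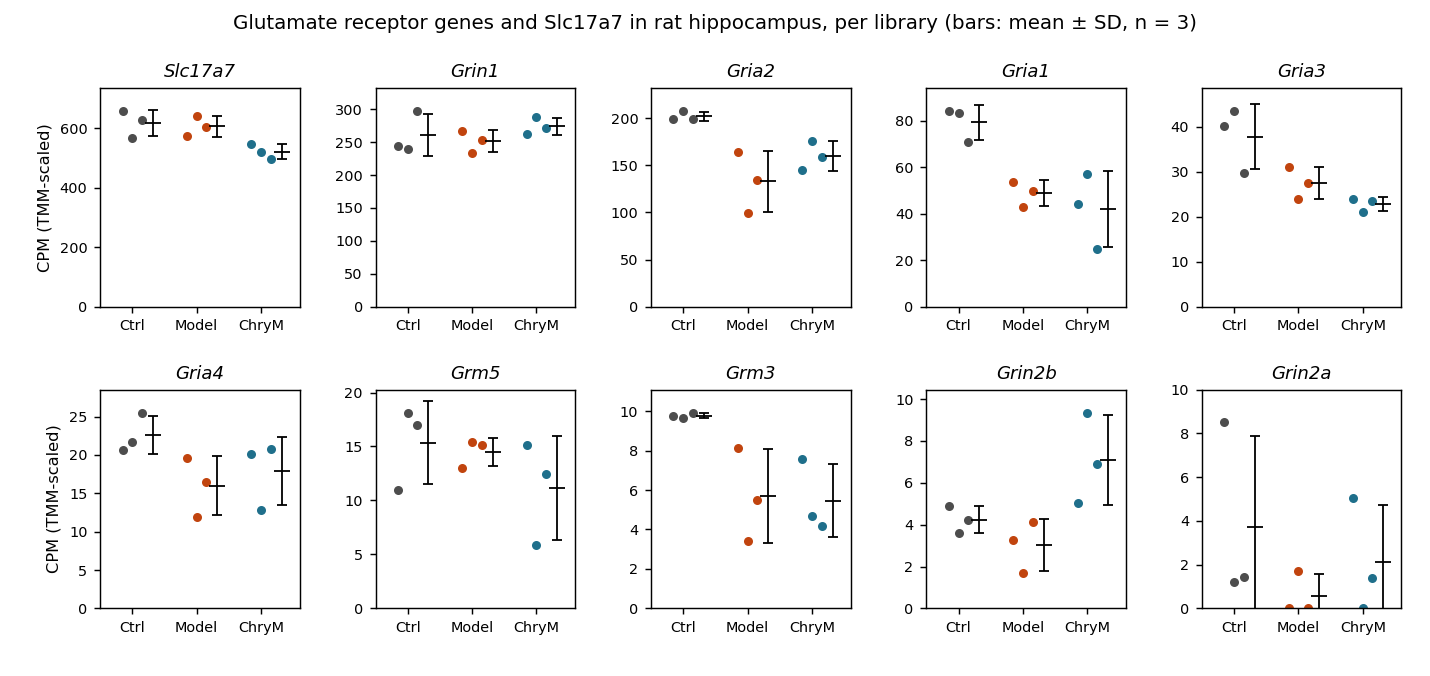
Each panel plots 1 gene, with CPM (TMM-scaled) on the vertical axis and the 3 groups on the horizontal axis. Points are libraries in replicate order and the bars beside them give the mean and SD of 3 libraries. The Ctrl points lie above all Model and ChryM points for Gria1 and Gria2, and ChryM points lie below all others for Slc17a7.

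Promoters are shown for the 2 genes with the highest levels, of which Slc17a7 was lower in ChryM than in Ctrl and Grin1 was called in no comparison. The 250 bases before the annotated start are given 5′ to 3′ on the gene's own strand, from RefSeq on GRCr8. Capitals mark GC boxes, the GGGCGG letters bound by Sp1-family factors, searched on both strands. Of the 10 genes, 4 (Slc17a7, Grin1, Gria4 and Grm5) had an entry in the promoter table.
Slc17a7, chr1:104785955-104786204, plus strand: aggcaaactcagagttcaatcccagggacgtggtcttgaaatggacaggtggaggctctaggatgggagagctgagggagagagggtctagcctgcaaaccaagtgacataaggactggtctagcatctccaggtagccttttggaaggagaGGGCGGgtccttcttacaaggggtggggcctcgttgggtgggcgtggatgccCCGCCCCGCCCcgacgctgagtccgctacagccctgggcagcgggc
Grin1, chr3:28528755-28529004, minus strand: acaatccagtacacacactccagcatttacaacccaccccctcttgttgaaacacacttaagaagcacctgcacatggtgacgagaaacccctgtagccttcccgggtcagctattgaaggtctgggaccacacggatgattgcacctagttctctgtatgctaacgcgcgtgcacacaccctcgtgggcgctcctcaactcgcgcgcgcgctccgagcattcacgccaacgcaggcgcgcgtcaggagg
The Slc17a7 window held 3 GC boxes, of which 1 neighbouring pair shares a base, while the Grin1 window held 0. GC boxes were present in 32.4% of 27457 windows of the same length. The G+C content was 61.2% for Slc17a7 and 57.6% for Grin1, against a median of 52.0% over all windows, and Grin1 had 19 CpG dinucleotides against a median of 6. The Grin1 window held 2 copies of TGACG, the core of the cAMP response element, which 19.0% of windows hold, and the Slc17a7 window held 0. Neither window held the full element TGACGTCA (present in 1.70% of windows) or the E-box CACGTG (5.79%), which says only that these letters were not in these windows.

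The first comparison, Model against Ctrl, asks what goes with diabetes and stress. The AMPA receptor subunit genes Gria1 and Gria2 were lower in Model, with log2 fold changes of -0.70 ± 0.19 and -0.60 ± 0.12 (± SE), which are folds of 1.63 and 1.52. Grin1, Grm5 and Slc17a7 differed from Ctrl by less than their error. All 7 tested genes had a log2 fold change below 0, as did 51.8% of all 7073 tested genes. Without single libraries, Grin1, Grm5 and Slc17a7 changed sign. The median was -0.47 over the 7 genes and -0.02 over all tested genes. By edgeR's quasi-likelihood test 2 of 7 were called at an adjusted p under 0.05, both lower, where 5.39% of all tested genes were called lower, 7.04% higher and 12.4% in either direction.

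Gria1 encodes GluA1, the subunit whose activity-dependent delivery to CA1 synapses is a feature of potentiation. It stood at 84.0, 83.2 and 70.7 CPM in Ctrl 1 to 3 and at 53.8, 42.7 and 49.6 CPM in Model 1 to 3. The groups did not overlap, and the lowest Ctrl library was above the highest Model library. Means were 79.3 ± 7.48 and 48.7 ± 5.60 CPM (SD, n = 3), from 188 and 94 counts, with an edgeR adjusted p of 0.00435. Leaving out any single library kept the call, at -0.63 to -0.78 (edgeR adjusted p up to 0.0351). On log2(FPKM + 1) and log2(FPKM + 0.1) it was not called (limma adjusted p = 0.0756 and 0.0862).

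Gria2 encodes GluA2, the subunit whose edited form makes AMPA receptors nearly impermeable to calcium. It stood at 200, 207 and 199 CPM in Ctrl 1 to 3 and at 165, 99.1 and 135 CPM in Model 1 to 3. Ctrl libraries were close together, while Model libraries were spread, with Model 2 lowest and all 3 below Ctrl. Means were 202 ± 4.56 and 133 ± 32.8 CPM (SD, n = 3), from 477 and 257 counts, with an edgeR adjusted p of 5.96e-05. The call was kept in each of the alternative settings, at -0.58 to -0.74 (largest adjusted p of 0.0296). Leaving out single libraries gave -0.44 to -0.78 (edgeR adjusted p up to 0.0157).

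Gria3 and Gria4, the other 2 AMPA subunit genes, were not called. Gria3 (GluA3) stood at 40.2, 43.4 and 29.7 CPM in Ctrl and at 31.0, 23.9 and 27.5 CPM in Model, and Ctrl 3 lay below Model 1. Its log2 fold change was -0.47 ± 0.25 (edgeR adjusted p = 0.240). Gria4 (GluA4), a subunit of interneurons and early postnatal neurons, stood at 20.7, 21.7 and 25.4 CPM in Ctrl and at 19.6, 12.0 and 16.5 CPM in Model. Its groups did not overlap, but the log2 fold change of -0.48 ± 0.33 rested on 53 and 31 counts (edgeR adjusted p = 0.394). Groups without overlap were found in 12.7% of all tested genes with Model lower and in 13.4% with Model higher.

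Grin1 stood at 245, 240 and 297 CPM in Ctrl and at 267, 234 and 253 CPM in Model. Ctrl 3 was the highest library and the others were mixed. The ratio of Model to Ctrl was 0.974, with a 95% counting interval of 0.862 to 1.10, and the log2 fold change was -0.04 ± 0.10 (edgeR adjusted p = 0.863). Slc17a7 stood at 657, 568 and 626 CPM in Ctrl and at 572, 642 and 603 CPM in Model, with full overlap. The ratio was 0.982 (95% counting interval 0.908 to 1.06), and the log2 fold change was -0.03 ± 0.08 (edgeR adjusted p = 0.899). Grm5 had 9 to 15 counts per library in Ctrl and 8 to 11 in Model. The ratio of 0.953 had a counting interval of 0.560 to 1.61, so a change of the size seen in Gria1 or Gria2 lies within that interval for Grm5, but outside it for Grin1 and Slc17a7. All such intervals are exact binomial and cover counting error only.

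The second comparison, ChryM against Model, asks what differs with chrysophanol. None of the 7 tested genes was called by edgeR, in either direction, where 3.86% of all tested genes were called higher and 4.41% lower, 8.27% together. Gria2 and Slc17a7 had an unadjusted edgeR p under 0.05 (0.0365 and 0.00905), as did 1368 of all 7073 tested genes. DESeq2 also called 0, but gave no adjusted p for 6 members, with Gria3, Gria4 and Grm5 among them. The median log2 fold change of the 7 genes was -0.19, against 0.00 over all tested genes.

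Gria2 was at 145, 176 and 159 CPM in ChryM 1 to 3, overlapping the Model values and below all Ctrl values. The log2 fold change against Model was 0.27 ± 0.13 (edgeR adjusted p = 0.214). Without Model 1, the Model library with the most Gria2, it was 0.43 (edgeR adjusted p = 0.0493), and without Model 2 the smallest value among such fits was reached, at 0.10. Slc17a7 was at 547, 519 and 497 CPM in ChryM, below every Model and every Ctrl library. Its log2 fold change against Model was -0.22 ± 0.08 (edgeR adjusted p = 0.0887). Groups without overlap were found in 11.7% of all tested genes with ChryM lower and in 11.8% with ChryM higher. The value passed the threshold in a fit of only Model and ChryM (edgeR adjusted p = 0.0337) and without Ctrl 3 (edgeR adjusted p = 0.0405).

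Gria1 was at 44.1, 57.2 and 24.9 CPM in ChryM, a wider spread than in its Ctrl or Model libraries. ChryM 2 lay above all Model libraries and ChryM 3 below them, and the log2 fold change was -0.19 ± 0.22 (edgeR adjusted p = 0.716). Gria3 was at 24.0, 21.0 and 23.5 CPM in ChryM, overlapping the lowest Model library, with a log2 fold change of -0.27 ± 0.28 (edgeR adjusted p = 0.664). Gria4 was at 20.2, 12.8 and 20.8 CPM, with ChryM 1 and ChryM 3 above every Model library and ChryM 2 within them. Grin1 was at 262, 288 and 271 CPM, and the ratio to Model of 1.09 had a 95% counting interval of 0.967 to 1.23. Grm5 had 12, 5 and 9 counts in ChryM 1 to 3.

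**Figure D2:**
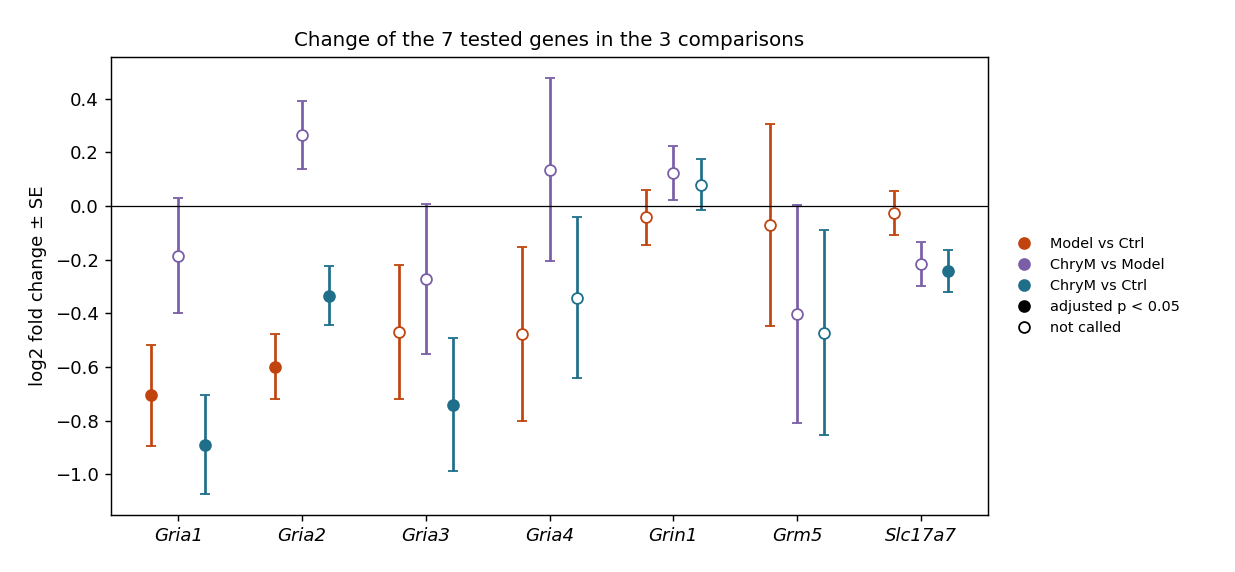
The vertical axis gives the log2 fold change with its SE for the 7 tested genes, and the colours mark the 3 comparisons. Filled points passed an adjusted p of 0.05. The filled points are Gria1 and Gria2 for Model against Ctrl, and Gria1, Gria2, Gria3 and Slc17a7 for ChryM against Ctrl, all below 0.

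The third comparison, ChryM against Ctrl, shares its libraries with the other 2. Gria1, Gria2, Gria3 and Slc17a7 were lower in ChryM and none of the 7 was higher. That is 4 of 7, where 8.96% of all tested genes were called lower, 9.83% higher and 18.8% in all. The median log2 fold change was -0.34 over the 7 genes and -0.01 over all tested genes. Gria1 fell by 0.89 ± 0.18, a fold of 1.85, to 42.1 ± 16.2 CPM (SD, n = 3), with an edgeR adjusted p of 6.32e-05. It was called in each alternative setting and without any single library, and without ChryM 3 the value was -0.66 (edgeR adjusted p = 0.00997). Gria2 fell by 0.33 ± 0.11 to 160 ± 15.6 CPM (edgeR adjusted p = 0.0218), and Gria3 by 0.74 ± 0.25, from 37.8 ± 7.18 to 22.8 ± 1.60 CPM (edgeR adjusted p = 0.0213). Slc17a7 fell by 0.24 ± 0.08, a fold of 1.18, from 617 ± 45.0 to 521 ± 25.2 CPM (edgeR adjusted p = 0.0198).

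In each of these 4 genes no ChryM library reached the lowest Ctrl library, and groups did not overlap in 15.8% of all tested genes with ChryM lower and in 15.8% with ChryM higher. Apart from Gria1, the calls were close to the threshold. Gria2 lost its call without Ctrl 1, Ctrl 2, ChryM 1 or ChryM 3 (edgeR adjusted p = 0.0575, 0.0724, 0.146 and 0.0519), Gria3 without Ctrl 1, Ctrl 2 or ChryM 2 (0.0800, 0.134 and 0.0894), and Slc17a7 without Ctrl 1, ChryM 2 or ChryM 3 (0.162, 0.0766 and 0.0707). With DESeq2 and with no count filter, only Gria1 was called of the 4. Grin1 was not called, with a ratio of ChryM to Ctrl of 1.06 (95% counting interval 0.948 to 1.19), nor were Gria4 at -0.34 ± 0.30 and Grm5 at -0.47 ± 0.38.

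The 4 AMPA subunit genes were also summed in each library on the FPKM scale. The sum was 65.8, 67.7 and 57.5 FPKM in Ctrl 1 to 3, 44.9, 30.9 and 39.3 in Model 1 to 3, and 40.3, 47.4 and 35.4 in ChryM 1 to 3. Every Ctrl library was above every other library, and Model and ChryM overlapped. Means were 63.7 ± 5.44, 38.4 ± 7.07 and 41.0 ± 6.02 FPKM (SD, n = 3). Gria2 made up 42.4% to 46.1% of the sum in Ctrl, 40.7% to 46.6% in Model and 47.8% to 57.9% in ChryM, so that each ChryM library had a larger Gria2 share than any other library. Gria1 made up 36.5% to 39.9%, 33.9% to 39.1% and 20.2% to 36.5% in the same order, and ChryM 3 had both the smallest Gria1 share and the largest Gria2 share. These shares are descriptions and were not tested. In ChryM 3 they rest on 18 counts of Gria1 and 115 of Gria2.

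**Figure D3:**
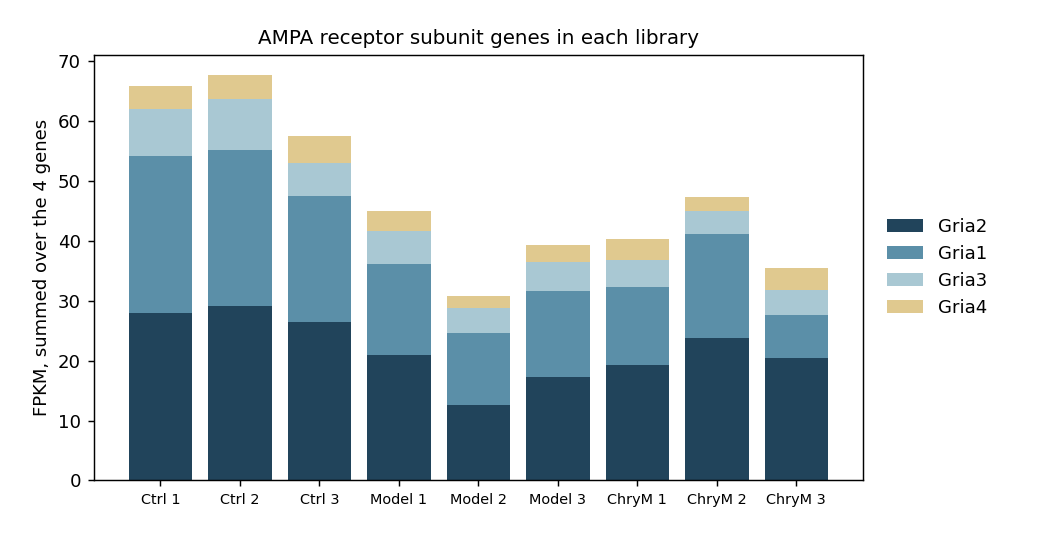
Stacked bars give the deposited FPKM of Gria2, Gria1, Gria3 and Gria4 in each of the 9 libraries. The Ctrl bars reach 57.5 to 67.7 FPKM and the Model and ChryM bars 30.9 to 47.4.

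Grin2a, Grin2b and Grm3 had too few counts to be tested. Grin2a, encoding the GluN2A subunit of mature synapses, had 7, 1 and 1 counts in Ctrl, 0, 1 and 0 in Model, and 4, 0 and 1 in ChryM. Most of its counts came from Ctrl 1 and ChryM 1, and the groups overlapped. A count of 0 allows up to 3 counts in that library, so no order can be read from these values. Grin2b, encoding GluN2B, the subunit that dominates early in development, had 4, 3 and 3 counts in Ctrl, 2, 1 and 3 in Model, and 4, 8 and 5 in ChryM. Scaled to CPM the ChryM libraries lay above the others, with a ratio to Model of 2.30 and a 95% counting interval of 0.865 to 7.12. A log2 ratio of Grin2a to Grin2b could not be formed in the 3 libraries without a Grin2a count. Grm3 had 8, 8 and 7 counts in Ctrl, 5, 2 and 4 in Model, and 6, 4 and 3 in ChryM. All Ctrl libraries were above the others in CPM, but the ratio of Ctrl to Model of 1.71 had an interval of 0.800 to 3.88. Grm3 overlaps Elapor2, a protein-coding gene with 144 to 283 counts per library.

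Other genes of glutamate signalling were read from 6 lists, which were also chosen with earlier results of these data known. Postsynaptic scaffolds and receptor anchors had 20 tested genes, of which 6 fell and 1 rose in Model against Ctrl, with a median log2 fold change of -0.20, where 5.39% of all tested genes were called lower and 7.04% higher. The 7 calls became 2 to 7 when 1 library was left out, 4 with DESeq2 and 3 to 8 over all other settings. Dlg4, encoding PSD-95, the scaffold that holds AMPA receptor complexes at the synapse, fell from 291 ± 15.9 to 172 ± 7.08 CPM (SD, n = 3), by 0.75 ± 0.11 (edgeR adjusted p = 2.66e-09). It was also lower in ChryM than in Ctrl, at 187 ± 16.5 CPM and -0.64 ± 0.10 (edgeR adjusted p = 9.18e-08), and held both calls in every setting and without any library. Camk2a, encoding the alpha subunit of the kinase CaMKII, which phosphorylates GluA1, fell by 0.44 ± 0.12 (edgeR adjusted p = 0.00568). Akap5 and Camk2b were also among those that fell, and Homer3, an mGluR5-binding scaffold gene, rose by 0.32 ± 0.10 (edgeR adjusted p = 0.0226). Camk2a lost its call without Model 2 (edgeR adjusted p = 0.0896). Homer3 lost its call with library totals alone (edgeR adjusted p = 0.190) and with a filter at a mean count of at least 30 (0.0606). It also did so on log2 FPKM (limma, up to 0.267) and without Ctrl 1, Ctrl 2, Model 2 or Model 3 (edgeR, up to 0.160).

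In ChryM against Model, 1 of the 20 scaffold genes rose and 1 fell, with a median of 0.13. Of all tested genes 3.86% were called higher there and 4.41% lower, 8.27% together. Camk2b, the beta subunit gene of CaMKII, rose by 0.39 ± 0.08, from 574 ± 32.3 to 749 ± 9.20 CPM (edgeR adjusted p = 1.26e-04). Nsf, an ATPase that binds GluA2 and recycles SNARE complexes, fell by 0.40 ± 0.11 (edgeR adjusted p = 0.00599), and lost its call without Model 3 (0.0515) and on log2(FPKM + 1) and log2(FPKM + 0.1) (limma adjusted p = 0.129 and 0.135). In ChryM against Ctrl, 3 rose and 3 fell, where 18.8% of all tested genes were called. The 6 calls became 2 with DESeq2, 4 to 6 when 1 library was left out and 2 to 10 over all other settings. Dlgap4, Shank2 and Homer3 were higher, and Dlg4 and Camk2a were among the lower. Dlgap4, a PSD-95-binding scaffold gene, rose by 0.49 ± 0.14 (edgeR adjusted p = 0.00640), and lost its call without Ctrl 1 (0.113), with DESeq2 (0.0694) and on log2 FPKM (limma, up to 0.0960). Homer3, at 0.35 ± 0.10, had an edgeR adjusted p of 0.00507 (0.0650 without Ctrl 1, 0.0581 without ChryM 3 and up to 0.0946 with limma on log2 FPKM).

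The auxiliary subunits of AMPA and kainate receptors had 10 tested genes. None was called in Model against Ctrl by edgeR or DESeq2, and the median was 0.16. By edgeR 1 had an unadjusted p under 0.05, as did 1665 of all 7073 tested genes. Cnih2, encoding cornichon-2, an AMPA receptor chaperone that slows channel closing, was at 208 ± 20.5 CPM in Ctrl, 233 ± 29.1 in Model and 306 ± 2.02 in ChryM. It rose against Ctrl by 0.56 ± 0.10 (edgeR adjusted p = 1.72e-06) and against Model by 0.38 ± 0.10 (edgeR adjusted p = 0.00453; 0.0884 without Model 1). It was the auxiliary gene called in those comparisons, where 9.83% of all tested genes were called higher against Ctrl and 3.86% against Model. Its direction was opposite to that of Gria1 and Gria2 in ChryM against Ctrl.

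Of the other ionotropic receptor genes, 6 were tested and 0 called by edgeR or DESeq2 in Model against Ctrl and in ChryM against Model. In each, 1 had an unadjusted edgeR p under 0.05, as did 1665 and 1368 of all 7073 tested genes. Grin3b, encoding an NMDA subunit that lowers calcium entry, was higher in ChryM than in Ctrl by 0.83 ± 0.27 (edgeR adjusted p = 0.0184), and lost its call without Ctrl 1, Ctrl 3, ChryM 1 or ChryM 3 (up to 0.101), with DESeq2 (0.134) and on log2 FPKM (limma, up to 0.0938). Of the other metabotropic receptors 2 were tested, and none was called or had an unadjusted p under 0.05 in any comparison. Of 11 tested genes of glutamate uptake, supply and vesicular transport, 1 fell in Model against Ctrl, where 5.39% of all tested genes were called lower. It was Slc1a3, the astrocytic uptake carrier EAAT1, from 116 ± 14.8 to 78.7 ± 4.57 CPM, by 0.56 ± 0.15 (edgeR adjusted p = 0.00479; 0.0514 without Ctrl 1). Slc1a3 was lower still against Ctrl in ChryM, at 62.1 ± 10.4 CPM and -0.92 ± 0.15 (edgeR adjusted p = 3.98e-07), whereas Slc1a1, the neuronal carrier EAAT3, rose there by 0.89 ± 0.23 (edgeR adjusted p = 0.00149). None of the 11 was called in ChryM against Model by edgeR or DESeq2. By edgeR 3 had an unadjusted p under 0.05, as did 1368 of all 7073 tested genes.

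Among 11 tested signalling partners of metabotropic receptors, 2 fell in Model against Ctrl by edgeR, where 5.39% of all tested genes were called lower. DESeq2 called 0 there, but gave no adjusted p for these 2 genes. Plcb1, the phospholipase C gene downstream of mGluR5, fell by 0.84 ± 0.17, from 96.5 ± 12.5 to 54.0 ± 1.58 CPM (edgeR adjusted p = 9.57e-05). Gnai1, an inhibitory G protein gene, fell by 0.85 ± 0.26 (edgeR adjusted p = 0.0164), and lost its call without Ctrl 2, Model 2 or Model 3 (up to 0.139) and on log2 FPKM (limma adjusted p = 0.170 and 0.200). None was called in ChryM against Model by edgeR or DESeq2, and 0 had an unadjusted p under 0.05. In ChryM against Ctrl, 4 fell: Plcb1 at -0.70 ± 0.16 (edgeR adjusted p = 3.77e-04), Gnai1 at -1.15 ± 0.26 (edgeR adjusted p = 2.96e-04), and Gnao1 at -0.39 ± 0.14 and Ncdn at -0.31 ± 0.11 (edgeR adjusted p = 0.0399 and 0.0318), which lost their calls without 5 of the 6 single Ctrl or ChryM libraries (edgeR adjusted p up to 0.128 and 0.0923), with DESeq2 (0.252 and 0.209) and with no count filter (0.132 and 0.145). Of all tested genes 8.96% were called lower there, and DESeq2 called 2 of the 11. On log2(FPKM + 1) Plcb1 and Gnai1 were not called there (limma adjusted p = 0.0615 and 0.0501). The list medians were -0.27, -0.04 and -0.30 in the 3 comparisons.

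**Figure D4:**
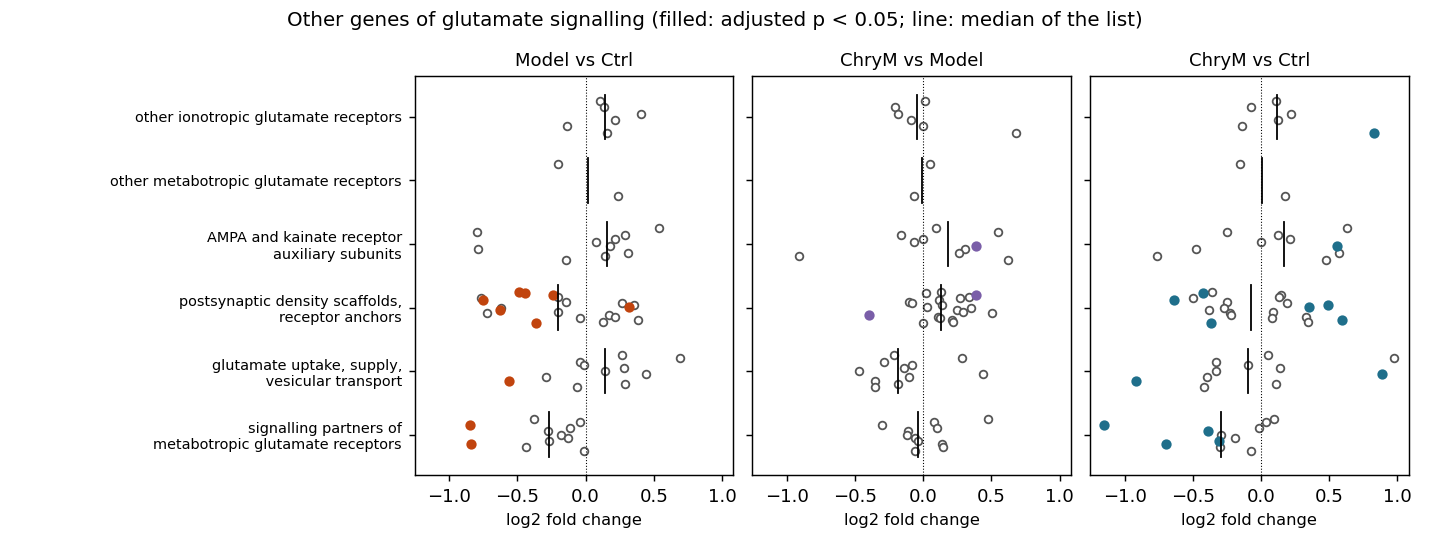
Each point is 1 tested gene of 1 of the 6 lists, with its log2 fold change on the horizontal axis and 1 panel per comparison. Filled points passed an adjusted p of 0.05 and vertical lines are list medians. Filled points of the scaffold list lie on both sides of 0 in every panel.

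Cell type markers moved in the same comparisons. In bulk tissue, fewer cells of a type and less RNA per cell cannot be told apart. Of 9 pyramidal neuron markers 3 fell in Model against Ctrl (Camk2a, Tbr1 and Wfs1) and 0 rose, where 5.39% of all tested genes were called lower. The median log2 fold change of the 9 was -0.04, against -0.02 over all tested genes. All 9 together summed to 703 to 807 CPM of the library total in Ctrl, 612 to 664 in Model and 685 to 781 in ChryM. Scaled by library totals, the all-gene median in Model against Ctrl was -0.14, so sums on this scale lean lower in Model. The 6 dentate granule markers summed to 113 to 128 CPM in Ctrl, 63.6 to 72.9 in Model and 99.0 to 118 in ChryM, and C1ql2 and Sema5a fell in Model and rose in ChryM against Model. The 8 astrocyte markers summed to 1450 to 1679 CPM in Ctrl, 1396 to 1462 in Model and 1343 to 1394 in ChryM. The 9 oligodendrocyte markers, all lower in Model than in Ctrl, summed to 15460 to 16550, 8459 to 9364 and 15000 to 16410 CPM. The 6 choroid plexus markers, of a tissue beside the hippocampus, differed most, with 1727 to 1792 CPM in Ctrl, 25.4 to 44.0 in Model and 70.4 to 85.7 in ChryM. In the same group order, oligodendrocyte precursor markers summed to 267 to 292, 177 to 188 and 181 to 215 CPM, GABA interneuron markers to 223 to 240, 233 to 294 and 197 to 233, microglia markers to 140 to 163, 139 to 164 and 90.6 to 125, and endothelial markers to 53.6 to 80.5, 40.9 to 67.3 and 28.7 to 53.1. Markers of neighbouring regions summed, over all groups, to 11.7 to 45.4 CPM for thalamus, 31.8 to 58.6 for cerebral cortex and 50.8 to 97.8 for striatum. Of the 6 cortex markers 2 were tested. Fezf2 was lower in Model than in Ctrl (-1.31 ± 0.43, edgeR adjusted p = 0.0196), at 7.86 against 19.3 CPM. The other tested cortex marker was not called and went the other way, and the median of the 2 was -0.57. With scaling factors computed without the myelin, precursor and choroid plexus markers, 2, 0 and 4 members were called in the 3 comparisons, as before. The part of any of these in the AMPA receptor values was not tested.

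For the 4 called genes, the most similar profiles over the 9 libraries were sought among 2195 or 2196 named genes with at least 50 CPM, by Pearson correlation of log2 CPM. The libraries share group differences, so the values are descriptions. Gria1 was nearest to Tomm70, Atp2a2 and Ppp3cb (r = 0.955, 0.932 and 0.929), and Gria2 to Myl6, Gnb2 and Gpm6a (0.951, 0.930 and 0.925). Gria3 was nearest to Morf4l2, Slc1a3 and Calm2 (0.956, 0.945 and 0.944), and Slc17a7 to Arhgdia, Map6 and Tspyl4 (0.919, 0.919 and 0.916). No gene appeared for more than 1 member.

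By position in RefSeq (GRCr8), 8 of the 10 genes overlap another annotated gene. Gria3 overlaps none and has none within 5 kb, and Slc17a7 overlaps none but lies 194 bases from Gfy, on the other strand, which had 0 to 5 counts per library. Grin1 overlaps Lrrc26, on the other strand, by 8 bases, and Lrrc26 had 1 to 5 counts. Gria1 overlaps LOC120095106, a protein-coding locus on the minus strand, by 79430 bases. That locus was not found by name among the counted genes, and the strand of Gria1 was not available. Gria2 overlaps 3 noncoding loci.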

How the data were processed

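Poly(A) RNA of rat hippocampus in 9 libraries, 3 each of Ctrl, Model and ChryM, was analysed from tables of the whole series; raw reads were not analysed here. The authors deposited read counts per gene as whole numbers, and a table of FPKM with a gene length, per the file headers. The deposited FPKM equalled count over length and library total in 100% of values (relative tolerance 1e-09). Per the submitters' processing notes, HISAT2 and DESeq2 were used, with no version. Counting tool, strand setting, build and annotation: not given in the sources used here. Of 30562 genes, 4367 had no name.

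Genes were filtered with filterByExpr, scaled by TMM and fitted with edgeR 4.0.16 (R 4.3.3; glmQLFit, robust) over all 9 libraries with 1 coefficient per group. The 3 comparisons were tested two-sided with glmQLFTest and Benjamini-Hochberg adjustment over all 7073 genes tested. As SE, the test's own value is printed unless the Poisson error of the groups' summed counts was larger. Groups were taken from the labels' group field. No 2 libraries held identical values, and library totals were 631119 to 866048 counts. The procedure was tested on simulated data. Alternatives used limma 3.58.1, DESeq2 1.42.0, other scalings and filters, a replicate block and each library left out.

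The member genes and the lists were chosen with earlier results of these data known. The rule named all members, up to 4 called genes per list and comparison by smallest p, and the 3 most similar genes for each called member. The other genes given by name alone, and the mitochondrial and neighbouring genes, were chosen after their values were seen. Some list genes that this rule names are not reported here. Promoter sequences and gene positions come from RefSeq tables of GRCr8. All 10 members matched a RefSeq gene and 4 a promoter. Sequences of opposite-strand windows that overlap were reverse complements in 1453 of 1453 pairs.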

Additional observations from a re-analysis of the deposited data

How the results depend on the processing

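At this depth 3 of the 10 genes could not be tested. The Gria2, Gria3 and Slc17a7 calls in ChryM against Ctrl moved with single libraries, and the cause was not tested. With DESeq2, limma on log2(FPKM + 1) and limma on log2(FPKM + 0.1), the genes called in Model against Ctrl were 440, 557 and 509 in place of 879, in ChryM against Model 262, 360 and 349 in place of 585, and in ChryM against Ctrl 591, 799 and 762 in place of 1329; the cause was not tested. In those 3 settings 1, 1 and 1 members were called in Model against Ctrl in place of 2, and 1, 2 and 2 in ChryM against Ctrl in place of 4. DESeq2 gave no adjusted p, and so could make no call, for 29033, 27730 and 26101 of the 30562 genes in the 3 comparisons. Among these were 7, 6 and 5 members, with Gria1 one of them in Model against Ctrl. Without a count filter 1 member was called in ChryM against Ctrl. In ChryM against Model 1 member was called, in place of 0, in a fit of only the 2 groups. Scaling by library totals moved the all-gene median in Model against Ctrl from -0.02 to -0.14 (log2) and the calls from 498 higher and 381 lower to 276 and 655. DESeq2 gave 359 higher and 81 lower, and its median of 0.14 covers only the genes with an adjusted p, so it is not an all-gene median. Over the tested genes, log2(FPKM + 1) gave a median of -0.12 with 204 and 353, and log2(FPKM + 0.1) gave -0.14 with 193 and 316. Gria2 was below 0 in each of these, and Gria1 in those that gave it an adjusted p. In ChryM against Model the split of 273 higher and 312 lower became 373 and 252 with library totals, 216 and 144 on log2(FPKM + 1) and 208 and 141 on log2(FPKM + 0.1), and in ChryM against Ctrl 695 and 634 became 520 and 819 with library totals and 385 and 206 with DESeq2. Leaving out 1 library gave 0 to 1 members in ChryM against Model and 1 to 4 in ChryM against Ctrl.

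Sign changes occurred only without a single library and only in genes that were not called. In Model against Ctrl, Grin1 ranged from -0.0972 to 0.0564, Grm5 from -0.269 to 0.0804 and Slc17a7 from -0.0833 to 0.0232. In ChryM against Model, Gria1 ranged from -0.479 to 0.0551 and Gria4 from -0.0249 to 0.343. Over the alternatives that gave a member an adjusted p, 390 member values kept direction and call status, 22 lost a call, 3 gained one and 8 changed sign. The 390 include values of genes called in neither fit. Settings that filtered out a member or gave it no adjusted p are not in these counts, as with DESeq2 for Gria1 in Model against Ctrl. No pairing by the replicate numbers of the labels was seen in correlations of the libraries' deviations. These were -0.0304 to 0.0421 for same-numbered libraries and -0.0425 to 0.0629 for differently numbered ones. Such values cannot show that the libraries were unpaired. With a replicate block 2, 0 and 4 members were called, as without it, and 855, 586 and 1317 genes in all.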
